A study of Arabidopsis thaliana with 9 samples.

Results

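Genes of auxin perception, signalling, transport, synthesis, conjugation and early response were followed in sepals of Arabidopsis thaliana. They were the protein-coding genes whose symbol in the deposited table was that of an Aux/IAA repressor (IAA), an auxin response factor (ARF), a SAUR, a PIN or AUX1/LAX carrier, a YUC enzyme, a GH3 enzyme or a TIR1/AFB receptor, or whose description named a SAUR-like auxin-responsive protein. This rule, which used names and no measured value, found 157 genes among 38299 in the table, 27567 of them protein coding. The SAUR family held 79, IAA 24, ARF 22, YUC 11, PIN 7, TIR1/AFB 5, GH3 5 and AUX1/LAX 4. For 3 of the 157 the table's description named another protein: AT1G23490 and AT2G24765 are ADP-ribosylation factors that share the abbreviation ARF, and AT5G01830, listed as SAUR21, is described as an ARM repeat protein. These 3 are called by locus below. Some family members go by older symbols in the table and fall outside the rule, among them ETT (ARF3), MP (ARF5), NPH4 (ARF7), GRH1 (AFB1), EIR1 (PIN2), AXR3 (IAA17) and PAP2 (IAA27).

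Wild-type Col-0 plants (WT) were set beside gir1-1 and atml1-3 mutants, with 3 sequencing libraries for each of the 3 genotypes. ATML1 encodes an HD-ZIP IV transcription factor of the epidermis, GIR1 encodes a small adaptor protein, and the series title places both with the co-repressor TPL in one repression module. Each library held RNA of 200 sepals pooled from 50 unopened buds at floral stage 12, from plants kept at 23 °C under continuous light, and the labels name 1 batch. The labels do not say that libraries of one genotype came from separately grown plants, so p-values measure only the spread between these libraries, and each mutant is represented by a single allele.

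Auxin is made from tryptophan by way of the YUC flavin monooxygenases and moves between cells through AUX1/LAX influx carriers and PIN efflux carriers. Inside the nucleus it bridges TIR1/AFB F-box receptors and Aux/IAA proteins, which are then degraded. This frees ARF transcription factors, which Aux/IAA proteins otherwise hold together with TPL at promoters that carry auxin response elements. GH3 enzymes join auxin to amino acids, and SAUR proteins are small early-response products, several of which promote cell expansion.

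Library totals ranged from 15328056 to 20148807 counts. For GIR1 (AT5G06270) the counts were 26, 36 and 73 among WT libraries, against 12, 10 and 7 for gir1-1 and 14, 10 and 17 for atml1-3. ATML1 stood at 29.9, 32.6 and 51.2 CPM (counts brought to a common library size by edgeR's trimmed mean of M-values, TMM) in WT, 24.0, 23.9 and 16 in gir1-1, with 7.8, 16.6 and 15.9 in atml1-3. Each mutant had its own mutated gene below every WT library, and the other mutated gene as well. One library stood apart: along the leading principal component, computed from 500 highly variable genes, gir1-1 replicate 3 lay at 37.2, against -1.2 and 14.0 for the other gir1-1 libraries, -17.6 to 11.4 for WT and -19.5 to -8.7 for atml1-3. The sepal and petal identity genes AP1 and SEP3 summed to 373 to 560 CPM in all libraries. Of 5 tapetum and pollen genes 4 had no count anywhere, and their sum stayed at or under 0.687 CPM. Of 5 carpel and ovule genes, STK and INO were at 0 in most libraries, and the sum was 4.31 to 5.05 CPM in WT, 5.30 to 6.77 in gir1-1 and 5.50 to 11 in atml1-3, so that every mutant library lay above WT in this sum. SHP1 made up most of it, at a mean of 3.69 CPM in WT. AG and SHP2 had log2 fold changes of -0.33 and -0.56 in gir1-1 against WT. The petal and stamen genes AP3 and PI, neither at 0 in any library, summed to 23.5, 44.3 and 48.9 CPM in WT, 29.0, 46.0 and 46.8 in gir1-1, with 47.8, 57.0 and 69.9 in atml1-3. PDF1, an epidermal marker, was between 0 and 0.835 CPM. The 4 epidermal markers together, mostly FDH, summed to 512, 397 and 562 CPM in WT, 393, 422 and 275 in gir1-1, with 286, 396 and 347 in atml1-3. Every atml1-3 library thus lay below WT, the nearest at 396 against 397 CPM, but the sum includes ATML1, the gene mutated in atml1-3. FDH and PDF2 each overlapped between atml1-3 and WT, FDH with 317 CPM in WT replicate 2 and 338 in atml1-3 replicate 2. ATML1, PDF2 and FDH each had negative log2 fold changes against WT in both mutants. The nectary genes CRC, SWEET9 and CWINV4 summed to 12.8, 7.41 and 1.76 CPM in WT, 0, 0.305 and 0.344 in gir1-1, with 1.82, 5.74 and 6.2 in atml1-3. In bulk sepals, fewer cells of a type and less RNA per cell cannot be told apart.

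Of the 157 genes, 96 had enough counts to be tested. Another 34 had at least 1 count, with no value above 3.73 CPM in any library, and 27 had none. No tested gene reached the level of the filter, 0.566 CPM, in a single genotype only. All 5 TIR1/AFB genes and all 4 AUX1/LAX genes were tested, together with 16 of 24 IAA, 14 of 22 ARF, 4 of 7 PIN, 3 of 11 YUC, 3 of 5 GH3 and 47 of 79 SAUR genes. YUC1, YUC5, YUC10, YUC11, GH3.1, GH3.4, IAA29 and 6 ARF genes (ARF12, ARF13, ARF15, ARF21, ARF22 and ARF23) were among those without a count. For YUC4 the counts were 0, 0 and 1 among WT libraries, 2, 2 and 5 for gir1-1, and 0, 2 and 0 for atml1-3. PIN6, an endomembrane PIN, was at 1.6 and 0.47 CPM in WT replicates 1 and 3 and 0.298 in atml1-3 replicate 3, and had no count in the other 6 libraries.

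Levels can be compared between genes only per length, and for this the authors' deposited FPKM (fragments scaled by gene length and library size) were averaged over the 9 libraries. The highest was the SAUR gene AT2G21220 at 215 FPKM, followed, apart from the ADP-ribosylation factor AT1G23490, by IAA16 at 106, IAA9 at 75.0, IAA8 at 59.7, AUX1 at 59.5 and ARF2 at 57.1 FPKM. Among the receptors the order was TIR1 at 47.0, AFB5 at 31.9, AFB3 at 12.9, AFB2 at 8.33 and AFB4 at 4.97 FPKM. Of the efflux carriers, PIN7 was at 22, PIN3 at 14.6 and PIN4 at 6.84 FPKM. AUX1 exceeded the other influx carriers, LAX1 at 2.51, LAX3 at 2.15 and LAX2 at 0.349 FPKM. The synthesis genes were low, with YUC6 at 3.21, YUC9 at 0.464 and YUC2 at 0.214 FPKM. The median over the tested genes of a family was 12.9 FPKM for TIR1/AFB, 12.7 for ARF (ADP-ribosylation factors included), 10.7 for PIN, 7.09 for IAA and 3.82 for SAUR.

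**Figure D1:**
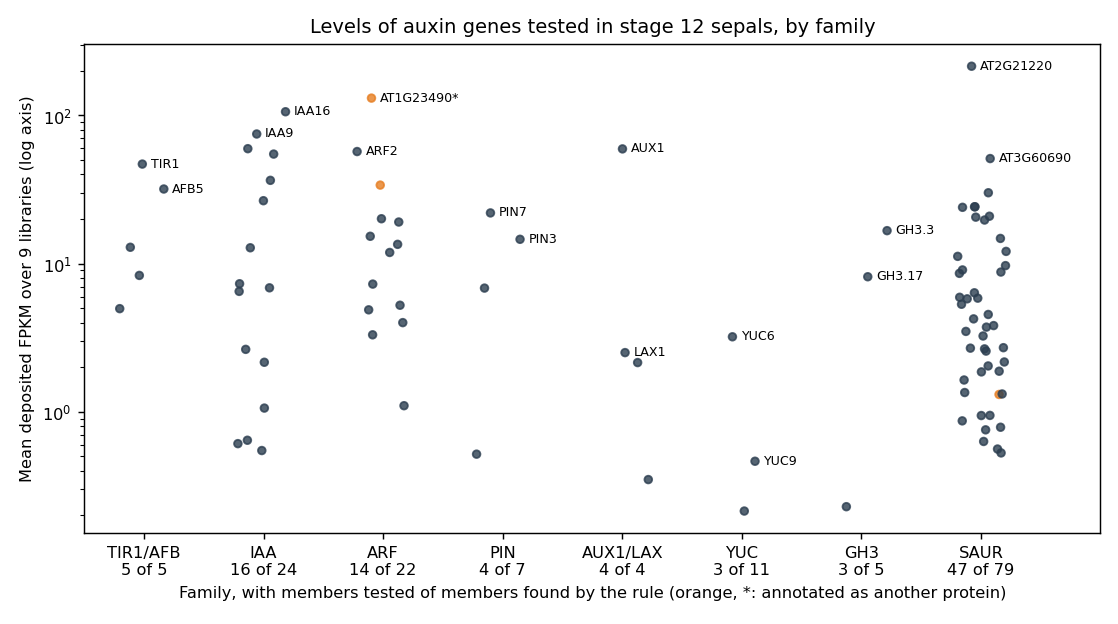
Mean deposited FPKM over the 9 libraries (log axis) of the 96 tested genes, 1 point a gene, by family, with the 2 highest of each family named and the 3 genes annotated as other proteins in orange. AT2G21220 lies highest at 215 FPKM, and the 3 YUC genes lie at 3.21 FPKM or below.

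No auxin gene passed the threshold of 0.05 in any comparison of genotypes, by the quasi-likelihood test of edgeR and adjustment after Benjamini and Hochberg over 19174 genes. In gir1-1 against WT, 0 of the 96 were called, where 3 of all genes tested (0.0156%) were. In atml1-3 against WT it was 0 of 96, and 0 genes (0.0%) overall. The direct comparison of atml1-3 with gir1-1 gave 0 of 96 beside 16 genes (0.0834%). The authors' deposited adjusted p-values fell below 0.05 for 0 auxin genes in gir1-1 against WT (0.454% of all genes with a value), for 3 in atml1-3 against WT (1.24%) and for 6 between the mutants (1.31%). DESeq2's Wald test on all 9 libraries called 2 auxin genes in each comparison, where it called 0.749%, 0.822% and 0.764% of all genes.

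At an unadjusted p-value under 0.05 in edgeR the 3 comparisons gave different splits. In gir1-1 against WT, 1 auxin gene was higher (1.04%, beside 3.36% of all genes) and 9 were lower (9.38%, beside 4.16%). In atml1-3 against WT, 4 were higher (4.17%, beside 5.5%) and 4 lower (4.17%, beside 6.22%), and with scaling by total counts this split became 7 higher and 3 lower. Between the mutants, 14 were higher in atml1-3 than in gir1-1 (14.6%, beside 3.36%) and 0 were lower (beside 3.99%). The median log2 fold change of the 96 was -0.24, 0.03 and 0.19 in these comparisons, and that of all genes tested was 0.005, -0.01 and -0.004. The comparisons share libraries with one another and are not independent.

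Separation of libraries without overlap was counted as well. For 20 of 96 auxin genes (20.8%) all atml1-3 libraries lay above all gir1-1 libraries, which held for 8.0% of all genes tested, and for 2 (2.08%) they lay below, beside 7.0%. In gir1-1 against WT, 0 were separated upward (beside 5.17%) and 9 downward (9.38%, beside 5.29%). In atml1-3 against WT, 4 were separated upward (4.17%, beside 9.85%) and 8 downward (8.33%, beside 8.64%). The direct comparison leaned on atml1-3 replicate 1: without it 9 genes were higher and 1 lower at an unadjusted p-value under 0.05, and the median of the 96 was 0.08. Without gir1-1 replicate 3, the library that stood apart, 13 were higher and 0 lower between the mutants, and 0 were higher and 7 lower in gir1-1 against WT. The 9 lower genes of gir1-1 depended more on WT replicate 3, without which 4 were lower and 1 higher.

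**Figure D2:**
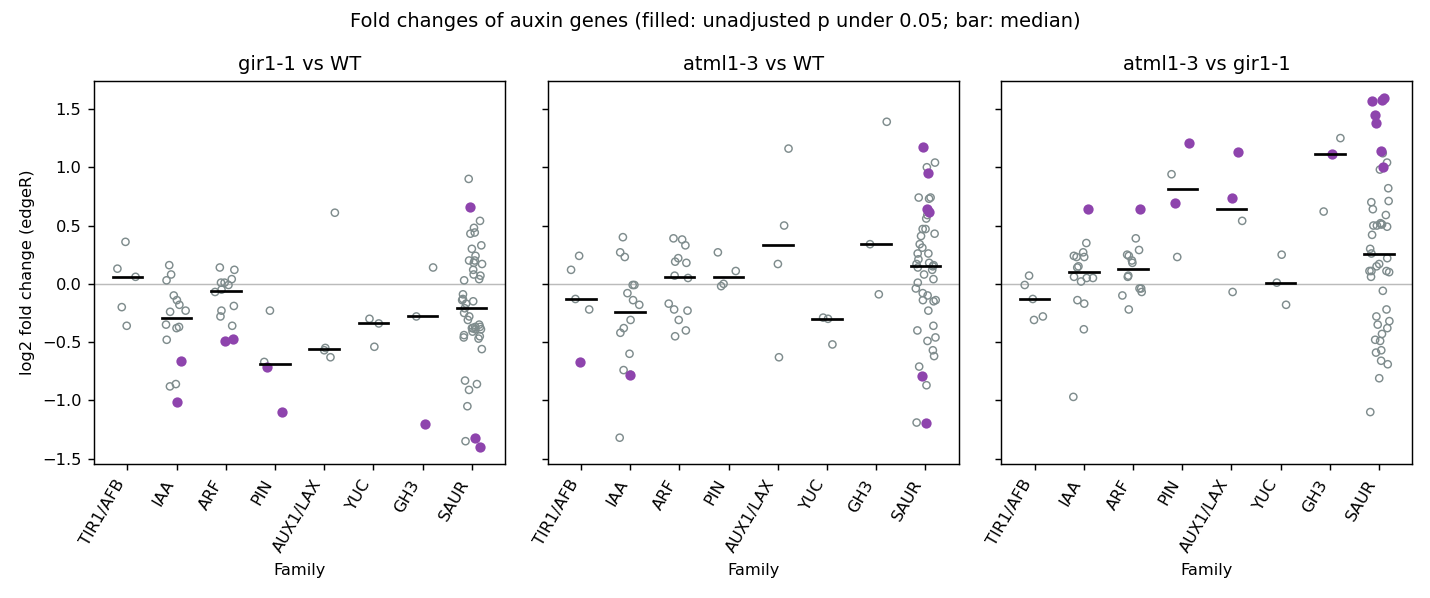
The edgeR log2 fold change of each of the 96 tested auxin genes by family in the 3 comparisons, with filled points for an unadjusted p-value under 0.05 and a bar at the family median. All filled points between the mutants lie above 0, and the PIN median is -0.69 in gir1-1 against WT and 0.81 between the mutants.

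The efflux carriers PIN3, PIN4 and PIN7 were lower in gir1-1 than in WT and higher in atml1-3 than in gir1-1, under each scaling tried. PIN3 (AT1G70940, TAIR10.1 chr1:26742940-26746469), which redistributes auxin sideways in growing tissues, was at 36.1, 45.7 and 61.1 CPM in WT, 21.3, 28.7 and 16.6 in gir1-1, with 65.7, 38.8 and 49.6 in atml1-3. Every gir1-1 library lay below every library of the other genotypes, which overlapped with each other. The log2 fold change of PIN3 was -1.10 (SE 0.27) in gir1-1 against WT and 1.21 (SE 0.27) between the mutants, with adjusted p-values of 0.388 and 0.273 by edgeR and 0.0326 and 0.01 by DESeq2. The authors' deposited table has adjusted p-values of 0.0518 and 0.00289 for PIN3.

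PIN4 (AT2G01420, chr2:180033-183764), a close relative of PIN3 and PIN7, was at 22.9, 22.9 and 31.1 CPM in WT, 17.8, 13.6 and 15.7 in gir1-1, with 33.8, 22.8 and 19.5 in atml1-3. Again the gir1-1 libraries were the 3 lowest of the 9. Its log2 fold change was -0.71 (SE 0.23) against WT and 0.69 (SE 0.23) between the mutants, with edgeR adjusted p-values of 0.513 and 0.631; the second value was 0.43 without atml1-3 replicate 1. PIN7 had the highest level of the family and the smallest differences, from 56.7 to 91.9 CPM in WT, 62.9 to 66.7 in gir1-1 and 67.3 to 82.6 in atml1-3, and log2 fold changes of -0.23, 0.00 and 0.23 (SE 0.18 each).

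Of the influx carriers, AUX1 (AT2G38120, chr2:15972876-15977180) was at 108, 209 and 229 CPM in WT, 107, 138 and 123 in gir1-1, with 228, 174 and 215 in atml1-3. All atml1-3 libraries exceeded all gir1-1 libraries, while WT replicate 1 lay among the gir1-1 values. Between the mutants the log2 fold change of AUX1 was 0.74 (SE 0.26); its adjusted p-value was 0.649 from edgeR, 0.299 from DESeq2 and 0.0125 in the authors' deposited table. LAX3, at 1.47, 3.9 and 4.17 CPM in gir1-1 and 7.92, 5.5 and 7.52 in atml1-3, differed between the mutants by 1.13 (SE 0.47) on the log2 scale, an edgeR adjusted p-value of 0.657. LAX1 went another way: it was at 10.2, 6.01 and 7.69 CPM in WT and at most 7.24 in gir1-1 and 5.64 in atml1-3, with log2 fold changes of -0.55 and -0.63 (SE 0.29 each) against WT. None of these differences passed the edgeR threshold. The nectary genes, lowest in gir1-1, moved with the lower gir1-1 values of PIN3, PIN4 and AUX1 across genotypes, and their part in these results was not tested; WT replicate 3 had the highest PIN3, PIN4 and AUX1 values of WT and the lowest nectary sum.

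GH3.17 (AT1G28130, chr1:9825169-9828118), an auxin-amido synthetase, had the smallest p-value of the 96 in gir1-1 against WT. It was at 18.8, 39.0 and 27.3 CPM in WT, 9.56, 12.9 and 14.4 in gir1-1, with 24.8, 23.6 and 31.4 in atml1-3. The gir1-1 libraries lay below all others, and the mean in atml1-3 was 2.16 times that in gir1-1. The log2 fold change of GH3.17 was -1.20 (SE 0.27) against WT and 1.11 (SE 0.27) between the mutants, with adjusted p-values of 0.334 and 0.363 by edgeR, 0.015 and 0.0322 by DESeq2, and 0.0534 and 0.00199 in the authors' deposited table. GH3.3, an auxin-induced member of the family, varied among libraries of one genotype, at 39.6, 10.1 and 17.6 CPM in WT, 12.4, 20.7 and 41.1 in gir1-1, with 20.4, 46.9 and 110 in atml1-3. Its libraries overlapped in every comparison, and the log2 fold changes of 1.39 (SE 0.67) in atml1-3 against WT and 1.25 (SE 0.66) between the mutants were about 2 standard errors. The 3 tested YUC genes were lower than WT in both mutants, by log2 fold changes between -0.54 and -0.29, none with an unadjusted p-value under 0.05; YUC6, the highest of them, was at 7.32, 9.05 and 9.87 CPM in WT, 6.45, 9.58 and 5.30 in gir1-1, with 7.80, 7.38 and 6.26 in atml1-3.

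**Figure D3:**
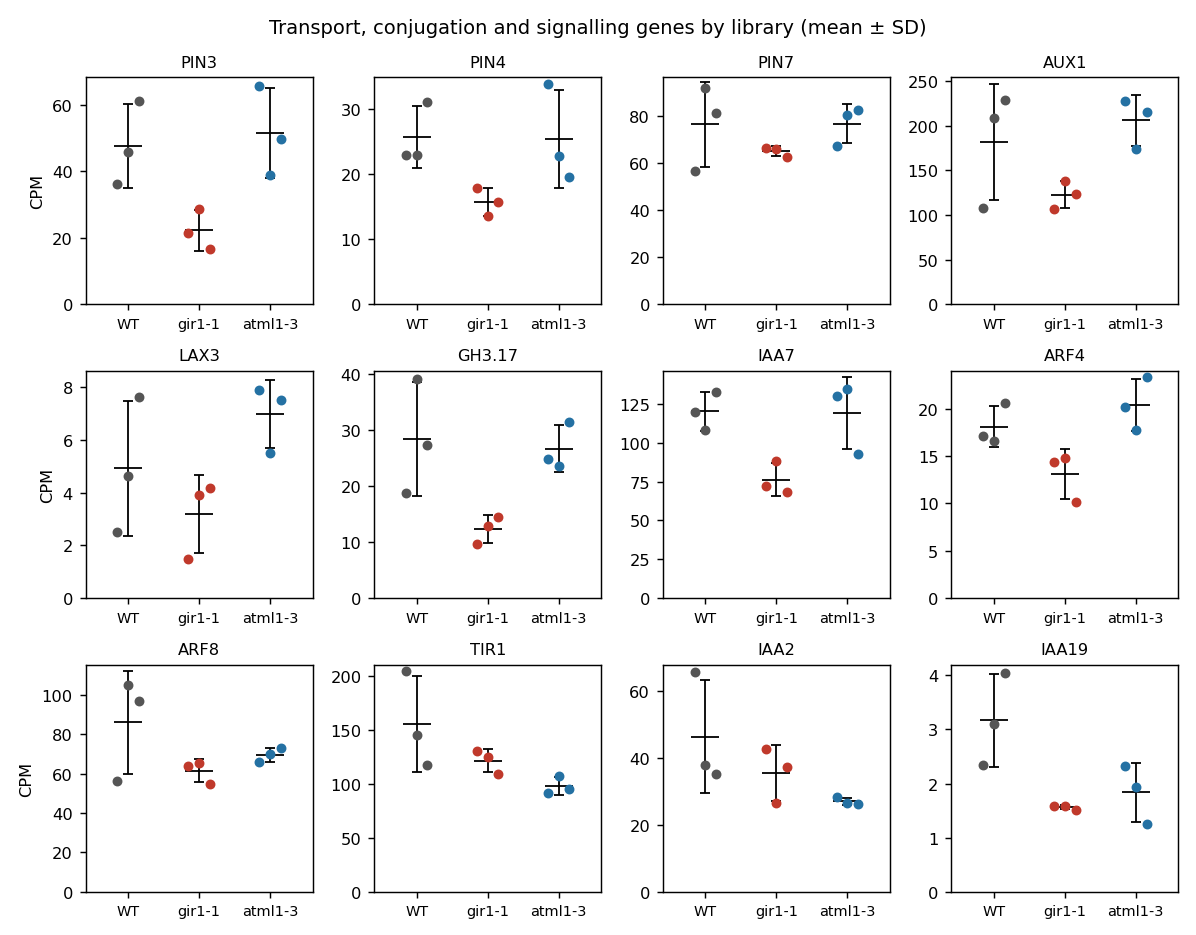
CPM in each library (points), with the mean and SD of the 3 libraries of a genotype (black), for 12 transport, conjugation and signalling genes on linear axes from 0. For PIN3, PIN4 and GH3.17 the gir1-1 libraries are the 3 lowest, and for TIR1 the atml1-3 libraries are.

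Among the 5 receptors the rule found, TIR1 alone had an unadjusted p-value under 0.05, in atml1-3 against WT. TIR1 (AT3G62980, chr3:23273065-23276630) was at 204, 145 and 117 CPM in WT, 130, 125 and 109 in gir1-1, with 91.2, 107 and 95.0 in atml1-3. The atml1-3 libraries were the 3 lowest, and WT replicate 1 was far above the rest. Its log2 fold change of -0.67 (SE 0.20) in atml1-3 had adjusted p-values of 0.372 by edgeR and 0.12 by DESeq2, and was -0.42 without WT replicate 1. AFB5, the receptor with the next highest level, ranged from 75.5 to 93.7 CPM in WT, 75.2 to 101 in gir1-1 and 59.9 to 78.2 in atml1-3, and AFB2, AFB3 and AFB4 had log2 fold changes between -0.20 and 0.36. Of the AFB3 exon bases, 31.4% overlap another gene, and whether strand was used in counting is not given in the sources used here, so its level is uncertain.

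The Aux/IAA repressors leaned below WT in both mutants, which share the WT libraries: 13 of 16 had a negative log2 fold change in gir1-1 (median -0.29) and 13 of 16 in atml1-3 (median -0.25), the latter 10 of 16 with scaling by total counts. Of all 96 auxin genes, 65 were negative in gir1-1 and 46 in atml1-3. At an unadjusted p-value under 0.05 in edgeR, 2 of the 16 were lower in gir1-1 (beside 4.16% of all genes) and 1 in atml1-3 (beside 6.22%). The highest, IAA16, showed little spread, at 232, 238 and 242 CPM in WT, 207, 203 and 197 in gir1-1, with 186, 214 and 229 in atml1-3. Both mutants lay below WT in all libraries, by log2 fold changes of -0.23 and -0.18 (SE 0.13 each), with adjusted p-values of 0.752 and 0.616 by edgeR. IAA9 and IAA8, also abundant, had log2 fold changes between -0.38 and 0.02 in the 3 comparisons.

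IAA7 (AXR2, AT3G23050, chr3:8194606-8197161), a repressor known from gain-of-function mutants with auxin-resistant growth, was at 120, 108 and 133 CPM in WT, 72.5, 88.5 and 68.1 in gir1-1, with 130, 135 and 92.7 in atml1-3. The gir1-1 libraries lay below all others, and WT and atml1-3 overlapped. Log2 fold changes of IAA7 were -0.66 (SE 0.18) in gir1-1 against WT and 0.64 (SE 0.18) between the mutants, with edgeR adjusted p-values of 0.447 and 0.551. IAA2 was at 65.7, 37.9 and 35.2 CPM in WT, 42.7, 26.4 and 37.2 in gir1-1, with 28.2, 26.6 and 26.2 in atml1-3. Its 3 atml1-3 libraries agreed closely and lay below WT, a log2 fold change of -0.78 (SE 0.25; -0.44 without WT replicate 1) with an edgeR adjusted p-value of 0.372.

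IAA19 (MSG2), an auxin-induced repressor of growth curvature, was low in all libraries, at 2.35, 3.10 and 4.05 CPM in WT, 1.58, 1.59 and 1.52 in gir1-1, with 2.33, 1.93 and 1.25 in atml1-3. Each gir1-1 library and each atml1-3 library lay below every WT library. The log2 fold change was -1.01 (SE 0.37) in gir1-1 and -0.78 (SE 0.37) in atml1-3, with edgeR adjusted p-values of 0.589 and 0.436. Auxin response elements were searched as the letters TGTCTC or TGTCGG on both strands in the 250 bases before each annotated gene start. IAA genes held one in 12 of 24 windows (50.0%), beside 14.7% of 27443 windows of protein-coding genes, 17.2% of the 157 auxin genes, 11.4% of SAUR and 9.09% of ARF genes. The ARF windows with an element were those of ARF19 and of the ADP-ribosylation factor AT2G24765. The IAA19 window (TAIR10.1, chr3:5263751-5264000, plus strand) is shown because it holds 3 such elements, in capitals, of which the nearest begins 128 bases before the start.

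IAA19: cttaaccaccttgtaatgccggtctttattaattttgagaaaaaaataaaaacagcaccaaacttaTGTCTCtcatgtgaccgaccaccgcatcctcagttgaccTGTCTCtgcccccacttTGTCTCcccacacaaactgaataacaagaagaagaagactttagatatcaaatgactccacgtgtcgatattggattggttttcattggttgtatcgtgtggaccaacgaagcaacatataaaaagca

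The 14 tested genes with ARF symbols, the ADP-ribosylation factors AT1G23490 and AT2G24765 included, had medians close to 0. Their median log2 fold change was -0.06, 0.06 and 0.12 in the 3 comparisons. In gir1-1 against WT both ADP-ribosylation factors lay above the median, at deposited log2 fold changes of 0.0 and 0.01. At an unadjusted p-value under 0.05 in edgeR, 2 of the 14 were lower in gir1-1 against WT (beside 4.16% of all genes). Between the mutants 1 was higher (beside 3.36%). ARF4, a repressing ARF that acts in organ polarity, was at 17.1, 16.6 and 20.6 CPM in WT, 14.4, 14.8 and 10.1 in gir1-1, with 20.2, 17.8 and 23.3 in atml1-3. The gir1-1 libraries were the 3 lowest, with log2 fold changes of -0.47 (SE 0.20) against WT and 0.64 (SE 0.20) between the mutants and edgeR adjusted p-values of 0.647 and 0.623; the first was -0.31 without gir1-1 replicate 3. ARF8, an activator of floral organ growth together with ARF6, was at 56.2, 105 and 97.1 CPM in WT, 64.1, 65.5 and 54.9 in gir1-1, with 66.0, 69.8 and 72.9 in atml1-3. WT replicate 1 lay within the gir1-1 values and the other WT libraries above them; the log2 fold change in gir1-1 of -0.49 (SE 0.21; -0.72 without WT replicate 1) had an edgeR adjusted p-value of 0.661. ARF6 ranged from 66.7 to 125 CPM in WT, 53.1 to 86.4 in gir1-1 and 66.7 to 73.6 in atml1-3, with log2 fold changes of -0.36 and -0.40 (SE 0.24 each) against WT. ARF2, the most abundant ARF, was between 184 and 272 CPM in all libraries.

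Of the 14 genes higher in atml1-3 than in gir1-1 at an unadjusted p-value under 0.05, 7 were SAUR genes, out of 47 tested (14.9%, beside 3.36% of all genes), and 0 SAUR genes were lower. The median log2 fold change of the 47 was 0.26 in that comparison, -0.21 in gir1-1 against WT and 0.15 in atml1-3 against WT. Without atml1-3 replicate 1 the first and the last were 0.02 and -0.01. Of the 79 SAUR genes, 33 lie in 6 runs of at least 3 neighbours with gaps of no more than 15 kb, a definition chosen after the values were seen. One run on chromosome 1, from 10301377 to 10323239 (21.9 kb, TAIR10.1), held 8 genes, 6 of them tested. All 6 were lower in gir1-1 than in WT (log2 fold changes -1.32 to -0.13), higher in atml1-3 than in WT (0.17 to 1.00) and higher in atml1-3 than in gir1-1 (0.30 to 1.59), and 4 of the 6 had an unadjusted p-value under 0.05 between the mutants. By comparison, the 5 tested genes of a 22.4-kb run on chromosome 4 were also all higher in atml1-3 than in gir1-1 (0.10 to 1.45), and the 5 tested of a 21.5-kb run on chromosome 5 lay between -0.49 and 1.57.

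AT1G29430, AT1G29440 (SAUR63), AT1G29450 and AT1G29510 (SAUR68 in the table) were the 4. SAUR63 and its neighbours are known to promote elongation of petals, stamen filaments and hypocotyls. AT1G29430 was at 1.09, 5.22 and 6.87 CPM in WT, 1.98, 2.32 and 0.982 in gir1-1, with 5.72, 3.86 and 6.20 in atml1-3, a log2 fold change between the mutants of 1.58 (SE 0.59). AT1G29450 was at 0.916, 4.74 and 3.99 CPM in WT, 2.77, 1.52 and 1.03 in gir1-1, with 6.73, 4.10 and 5.25 in atml1-3, a log2 fold change of 1.59 (SE 0.58). In both genes the atml1-3 libraries were above all gir1-1 libraries, the means differed 2.99 and 3.02 times, and WT replicate 1 was below the highest gir1-1 library while the other WT libraries were above it. The 2 genes had adjusted p-values of 0.652 and 0.649 from edgeR, 0.293 and 0.263 by DESeq2, and 0.0325 and 0.0444 in the authors' deposited table. Of the petal and stamen genes, AP3, which makes up most of their sum, moved with these values. It too was higher in all atml1-3 libraries than in all gir1-1 libraries and lowest in WT replicate 1. PI did not: its libraries overlapped between the mutants (log2 fold change -0.48), and of WT it was highest in replicate 1. The part of these genes in this result was not tested.

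SAUR63 was at 0.916, 1.03 and 1.76 CPM in WT, 1.64, 0.976 and 0.737 in gir1-1, with 1.95, 2.89 and 2.57 in atml1-3. Here WT lay with gir1-1, and atml1-3 was above both; log2 fold changes in atml1-3 were 1.00 (SE 0.45) against WT and 1.14 (SE 0.45) against gir1-1, with edgeR adjusted p-values of 0.425 and 0.654. SAUR68 was at 2.63, 7.17 and 6.34 CPM in WT, 3.51, 3.11 and 1.96 in gir1-1, with 10.9, 5.64 and 5.73 in atml1-3, a log2 fold change between the mutants of 1.38 (SE 0.44; 0.99 without atml1-3 replicate 1). Copies of these genes resemble each other: 23.2%, 27.1% and 33.9% of the 50-base words of AT1G29430, SAUR63 and SAUR68 exons occur elsewhere in the genome, as do 0% of AT1G29450 and 0.435% of AT1G29500, and 25.6% of the SAUR63 exon bases overlap another gene. Counts of the first 3 are therefore uncertain, since the treatment of reads with several matches is not given in the sources used here. The neighbours AT1G29460 and AT1G29500, with little shared sequence, had log2 fold changes of 0.30 (AT1G29460) and 0.98 (AT1G29500) between the mutants. For AT1G29460 the libraries of the mutants overlapped, and for AT1G29500 the lowest atml1-3 library, at 2.74 CPM, was next to the highest of gir1-1, at 2.71 CPM.

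The windows of 250 bases before the starts of 5 genes of the run are shown because the 6 tested genes had the same sign in each comparison. The window of AT1G29460, the other tested gene, is not printed and holds no auxin response element. Capitals mark auxin response elements (TGTCTC or TGTCGG), which 4 of the 8 windows of the run hold. AT1G29430 (chr1:10303419-10303668) and SAUR63 (chr1:10305109-10305358) and AT1G29450 (chr1:10306596-10306845) are on the minus strand, and AT1G29500 (chr1:10320761-10321010) and SAUR68 (chr1:10322173-10322422) on the plus strand, all TAIR10.1 and written 5′ to 3′ along the gene.

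AT1G29430: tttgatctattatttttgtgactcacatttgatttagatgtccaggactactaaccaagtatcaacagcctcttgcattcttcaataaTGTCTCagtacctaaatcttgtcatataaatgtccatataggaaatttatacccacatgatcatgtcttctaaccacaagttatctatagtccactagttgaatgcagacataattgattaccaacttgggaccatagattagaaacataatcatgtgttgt
SAUR63: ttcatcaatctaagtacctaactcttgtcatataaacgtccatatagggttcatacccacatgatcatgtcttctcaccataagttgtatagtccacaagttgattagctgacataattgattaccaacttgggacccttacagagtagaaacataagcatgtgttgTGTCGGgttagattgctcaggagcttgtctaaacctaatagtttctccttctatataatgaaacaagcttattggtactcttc
AT1G29450: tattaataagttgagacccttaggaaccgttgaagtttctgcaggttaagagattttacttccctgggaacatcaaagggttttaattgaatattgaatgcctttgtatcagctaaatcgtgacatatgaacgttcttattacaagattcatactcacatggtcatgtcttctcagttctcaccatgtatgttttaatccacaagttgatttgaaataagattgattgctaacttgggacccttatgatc
AT1G29500: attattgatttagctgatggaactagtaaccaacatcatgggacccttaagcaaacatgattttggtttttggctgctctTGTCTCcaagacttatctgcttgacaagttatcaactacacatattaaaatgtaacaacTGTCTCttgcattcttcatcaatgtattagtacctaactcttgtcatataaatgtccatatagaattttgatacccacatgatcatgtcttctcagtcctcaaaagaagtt
SAUR68: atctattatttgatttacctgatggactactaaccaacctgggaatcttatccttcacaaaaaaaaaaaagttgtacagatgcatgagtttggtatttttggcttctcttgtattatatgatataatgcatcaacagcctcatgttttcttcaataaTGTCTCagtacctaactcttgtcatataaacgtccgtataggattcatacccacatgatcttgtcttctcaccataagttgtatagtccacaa

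The element begins 162 bases before the start of AT1G29430, 83 before SAUR63, 93 before SAUR68, and 170 and 111 before AT1G29500, and the AT1G29450 window has none. Beyond the element, the windows shared long stretches, the longest being 32 bases of SAUR68 and SAUR63 and 27 bases of AT1G29430 and SAUR63. The word CACATG, picked after the windows were seen and searched on both strands, is in all 8 windows of the run, beside 39.2% of SAUR windows and 11.1% of all protein-coding windows. TGGGACC, picked the same way, is in 5 of the 8 and in 1.26% of all. L1 boxes, the letters TAAATGCA or TAAATGTA that HD-ZIP IV factors such as ATML1 are known to bind, were found in 7.01% of the 157 auxin windows and 4.49% of all, in 1 of the 8 windows of the run (AT1G29460) and in 0 of the 14 genes higher in atml1-3 than in gir1-1. These are matches of letters, and nothing was measured at them.

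Further SAUR genes outside this run were higher in atml1-3 than in gir1-1. AT4G38840 was at 8.81, 8.81 and 15.6 CPM in WT, 9.22, 9.76 and 6.68 in gir1-1, with 20.4, 14.7 and 16.1 in atml1-3. The atml1-3 libraries exceeded all gir1-1 libraries, and of the WT libraries replicate 3 lay among the atml1-3 values and the other two among those of gir1-1. Its log2 fold change was 1.00 (SE 0.27) between the mutants and 0.62 (SE 0.27) in atml1-3 against WT, with edgeR adjusted p-values of 0.526 and 0.414 and a deposited one of 0.0196 between the mutants in the authors' deposited table. AT4G34790 and SAUR19, both low, had log2 fold changes between the mutants of 1.45 (SE 0.48) and 1.57 (SE 0.56), from 0.61 to 1.41 and 0.226 to 0.732 CPM in gir1-1 and 2.39 to 4.02 and 0.943 to 1.69 CPM in atml1-3; of the SAUR19 exon words, 18.5% occur elsewhere. AT1G72430, at 23.5, 11.5 and 39.5 CPM in WT and 13.3, 6.22 and 8.64 in gir1-1, had the largest negative log2 fold change of the 96 against WT in gir1-1, -1.40 (SE 0.48), with an edgeR adjusted p-value of 0.538 and -0.90 without WT replicate 3.

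**Figure D4:**
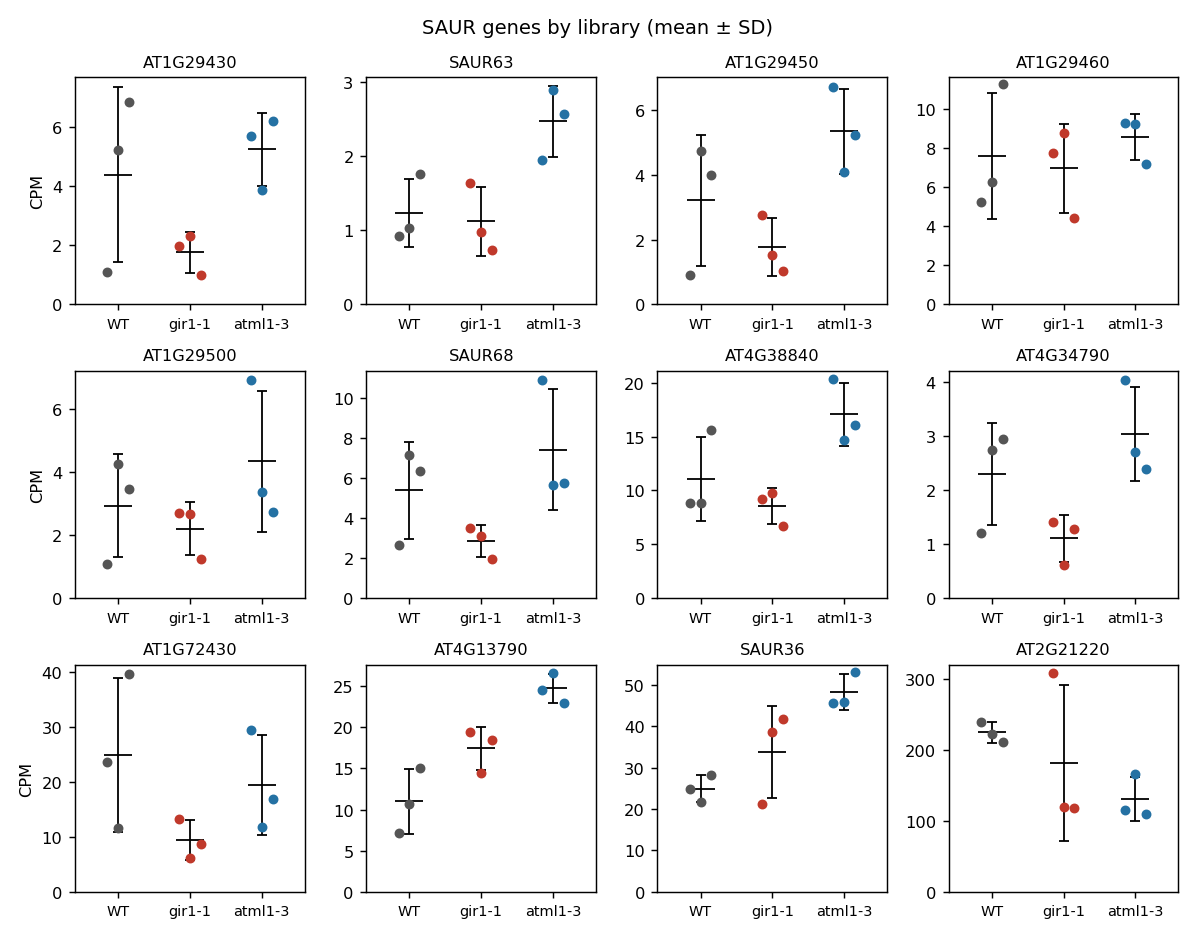
CPM in each library (points), with the mean and SD of the 3 libraries of a genotype (black), for 12 SAUR genes on linear axes from 0; the first 6 are neighbours on chromosome 1. AT4G13790 has its 3 highest values in atml1-3 (23.0 to 26.6 CPM), and AT2G21220 its 3 WT libraries between 211 and 240 CPM.

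In atml1-3 against WT, 4 of the 47 SAUR genes were higher (8.51%, beside 5.5% of all genes) and 2 lower (4.26%, beside 6.22%) at an unadjusted p-value under 0.05, and edgeR called 0. The carpel and ovule sum, mostly SHP1 and above WT in all atml1-3 libraries, moved with this comparison. The same sum was above WT in all gir1-1 libraries, where the median log2 fold change of the 47 was -0.21. Its part was not tested. AT4G13790 (chr4:7999516-8000372) was at 7.21, 10.7 and 15.1 CPM in WT, 19.4, 14.5 and 18.5 in gir1-1, with 24.6, 26.6 and 23.0 in atml1-3. Its atml1-3 libraries were the 3 highest of the 9, with gir1-1 mostly between them and WT. The log2 fold change of AT4G13790 was 1.17 (SE 0.25) in atml1-3 and 0.66 (SE 0.25) in gir1-1 against WT, with adjusted p-values in atml1-3 of 0.365 by edgeR, 0.013 by DESeq2 and 0.0137 in the authors' deposited table. SAUR36 (AT2G45210, chr2:18641563-18642739), a SAUR linked to leaf senescence, was at 24.8, 21.7 and 28.2 CPM in WT, 21.2, 38.5 and 41.7 in gir1-1, with 45.6, 45.9 and 53.2 in atml1-3. Again all atml1-3 libraries lay above all others. SAUR36 had a log2 fold change of 0.95 (SE 0.24) in atml1-3, with adjusted p-values of 0.372 by edgeR, 0.049 by DESeq2 and 0.00141 in the authors' deposited table.

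AT2G21220 (chr2:9089226-9090052), the most abundant auxin gene, was at 240, 223 and 211 CPM in WT, 308, 119 and 118 in gir1-1, with 115, 166 and 110 in atml1-3. All atml1-3 libraries lay below WT, whereas the gir1-1 libraries lay on both sides of it. In atml1-3 the log2 fold change was -0.79 (SE 0.35), with adjusted p-values of 0.422 by edgeR, 0.301 by DESeq2 and 0.0222 in the authors' deposited table. AT1G19840, at 2.58, 3.34 and 2.35 CPM in WT and 1.19, 0.771 and 1.67 in atml1-3, had a log2 fold change of -1.19 (SE 0.39), and AT5G53590, at 10.8, 17.4 and 19.9 CPM in WT and 24.3, 29.9 and 20.5 in atml1-3, one of 0.64 (SE 0.27), with edgeR adjusted p-values of 0.372 and 0.411. AT3G60690, the SAUR gene with the next highest level, was between 50.1 and 75.1 CPM in all libraries.

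Of 13 family members outside the rule, all tested and 0 called by edgeR, 4 had an unadjusted p-value under 0.05 in a comparison, and they differed in direction. In gir1-1 against WT 1 was higher and 2 lower (beside 3.36% and 4.16% of all genes). In atml1-3 against WT 0 were higher and 1 lower (beside 5.5% and 6.22%). Between the mutants 1 was higher and 0 lower (beside 3.36% and 3.99%). GRH1, the receptor also called AFB1, was at 18.9, 15.9 and 32.0 CPM in WT, 14.6, 13.7 and 13.4 in gir1-1, with 26.3, 20.8 and 19.0 in atml1-3, with log2 fold changes of -0.68 (SE 0.25) in gir1-1 against WT and 0.67 (SE 0.25) between the mutants. PAP2 (IAA27) was at 16.5, 11.7 and 18 CPM in WT and 9.16, 8.66 and 9.92 in gir1-1, a log2 fold change of -0.73 (SE 0.25). MP, the activating ARF of vein and flower formation, differed in the other direction, at 13.0, 11.2 and 13.0 CPM in WT and 13.7, 24.0 and 25.9 in gir1-1, a log2 fold change of 0.77 (SE 0.25). EIR1 (PIN2), the efflux carrier of root gravitropism, was at 3.09, 1.94 and 5.93 CPM in WT, 2.71, 1.22 and 0.933 in gir1-1, with 0.189, 1.59 and 1.01 in atml1-3. All atml1-3 libraries of EIR1 lay below WT, a log2 fold change of -1.95 (SE 0.71), and between the mutants it was -0.77 (SE 0.71), opposite in sign to PIN3, PIN4 and PIN7. Adjusted p-values by edgeR were 0.602 and 0.652 for GRH1, 0.537 for PAP2, 0.512 for MP and 0.384 for EIR1 in atml1-3 against WT. The other 9, ETT and AXR3 among them, had log2 fold changes between -0.99 and 0.96, and the median of the 13 was -0.24, -0.26 and -0.05 in the 3 comparisons.

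Of 45 other genes of auxin synthesis, inactivation, transport and signalling, 36 were tested and 0 were called by edgeR in any comparison. At an unadjusted p-value under 0.05, 3 were higher and 2 lower in gir1-1 against WT (8.33% and 5.56%, beside 3.36% and 4.16% of all genes). In atml1-3 against WT 4 were higher and 1 lower (11.1% and 2.78%, beside 5.5% and 6.22%), and between the mutants 1 was higher and 2 lower (2.78% and 5.56%, beside 3.36% and 3.99%). DAO2 (AT1G14120), of the family of dioxygenases that oxidise auxin, was seen with 0, 1 and 0 counts among WT libraries, 101, 24 and 45 among those of gir1-1, and 0 in each atml1-3 library. The gir1-1 libraries were thus the only ones with more than 1 count, with adjusted p-values of 0.151 against WT and 0.0728 between the mutants by edgeR, and 0.0003 and 3.51e-06 by DESeq2. DAO2 reached the level of the filter, 0.566 CPM, only in gir1-1, where it was high. Its p-values therefore describe these libraries and add no separate support. DAO2 is 1 of the 3 genes counted above as higher in gir1-1 against WT. It is also 1 of the 2 counted as lower between the mutants, so both shares include it. Its neighbour DAO1 (AT1G14130), the main auxin oxidase, was at 32.2, 64.8 and 59.0 CPM in WT, 67.2, 107 and 79.1 in gir1-1, with 51.7, 61.2 and 133 in atml1-3. No 50-base word of either gene's exons occurs elsewhere in the genome. PILS5 (AT2G17500), a carrier that retains auxin in the endoplasmic reticulum, was at 149, 132 and 148 CPM in WT and 236, 259 and 253 in atml1-3, without overlap, a log2 fold change of 0.80 with an edgeR adjusted p-value of 0.372. The others counted as higher in atml1-3 against WT were ILR1 (1.00), PILS3 (0.89) and ABP1 (0.43), and the 1 lower was ABCB19 (-0.71). ILR1 was also above WT without overlap in gir1-1, a log2 fold change of 0.76 with an edgeR adjusted p-value of 0.607. TPL, the co-repressor of the Aux/IAA proteins, was at 308, 280 and 226 CPM in WT, 175, 260 and 191 in gir1-1, with 214, 210 and 259 in atml1-3, with log2 fold changes of -0.38 and -0.25 against WT.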

How the data were processed

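Read counts per gene of 9 libraries were taken as deposited by the authors in one table, per the file headers. The authors also deposited FPKM values per library, used only for levels between genes, and, per pair of genotypes, a log2 fold change with its p-value before and after adjustment. Aligner, counting program and use of strand are not given in the sources used here; the submitters' processing notes name the build TAIR10. All 38286 genes found by identifier in the TAIR10.1 RefSeq annotation had the same start and end there, so windows were read from that genome.

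Groups came from the sample titles. Counts were fitted with edgeR 4.0.16 in R 4.3.3 (quasi-likelihood, TMM, filterByExpr, 19174 genes, 6 residual degrees of freedom, all 9 libraries, genotype as the only factor), with Benjamini-Hochberg adjustment and 0.05 as the threshold; a standard error (SE) is the size of the log2 value over the root of its F. DESeq2 1.42.0 was an alternative. A floor of 3 counts is 0.1489 to 0.1957 CPM per library, for counting error only. The chi-square per degree of freedom of replicate pairs was 26.31 to 63.23, so no pair agreed within sampling noise.

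Members, lists and words searched were chosen with earlier results of these data known. Genes are named when called by edgeR or in the authors' deposited table, when among the 10 smallest p-values of a comparison or the 2 highest FPKM of a family, or when on a list of 15 central genes (ARF3 and ARF5 of that list are ETT and MP here); LAX3, AT1G29460, AT1G29500, IAA8, AFB2, AFB3, AFB4, PIN6 and the genes outside the rule were named after their values were seen. One gene of that list is not reported here. No amino acid sequences were used here.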

Additional observations from a re-analysis of the deposited data

How the results depend on the processing

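Alternatives were DESeq2 size factors, total count scaling, DESeq2's Wald test, no filter on low counts, only the genotypes compared, a replicate block and leaving out each library; leaving out the 3 genes annotated otherwise, and the genes with shared words, was added after seeing the data. With edgeR, 0 auxin genes were called under every one of these in each comparison, and DESeq2's Wald test called 2, 2 and 2. Counts at an unadjusted p-value under 0.05 (10, 8 and 14) became 6 for gir1-1 against WT with only the genotypes compared. Leaving out libraries gave 5 to 15 for gir1-1 against WT, with 5 without WT replicate 3 and 15 without gir1-1 replicate 1, then 7 to 11 for atml1-3 against WT and 10 to 16 between the mutants. Of the 14 genes higher in atml1-3 than in gir1-1, all 14 kept their direction when any library was left out, and 8 to 12 kept an unadjusted p-value under 0.05, fewest without atml1-3 replicate 1. Without that library the median of the 96 in atml1-3 against WT was -0.06. Of 384 values of 32 named results, 378 kept their side of the threshold and 6, all under DESeq2's Wald test, passed it. Same-numbered libraries correlated between -0.174 and 0.121 in their deviations from the genotype means, so no pairing by number showed in the counts. Correlations cannot tell whether such libraries were grown or prepared together. With the replicate block, 0 auxin genes were called and the unadjusted counts were 8, 7 and 16. Depth limits the low SAUR, YUC and IAA genes most, since values near 1 CPM rest on few counts.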

Other observations

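WT replicate 1 differed from the other WT libraries in several auxin genes at once. Replicate 1 had the lowest WT value of AUX1 (108 against 209 and 229 CPM), ARF8 (56.2 against 105 and 97.1 CPM), AT1G29430 (1.09 against 5.22 and 6.87 CPM) and AT1G29450 (0.916 against 4.74 and 3.99 CPM), and the highest of TIR1 (204 against 145 and 117 CPM) and IAA2 (65.7 against 37.9 and 35.2 CPM). Of the WT libraries it also had the highest nectary sum, at 12.8 CPM, and the lowest petal and stamen sum, at 23.5 CPM. That sum is mostly AP3, and PI was highest of WT in replicate 1, at 2.17 CPM. What these values have in common was not tested.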
